A study of Mus musculus with 6 samples.

Results

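Expression of 42 genes of excision, mismatch and direct-reversal repair was followed over 0 h, 2 h and 6 h of KCl depolarization in cultured mouse cortical neurons. The genes were chosen by the repair pathway they belong to, and no measured value entered the choice rule. All 42 were found among the 43432 genes listed, and all averaged 10 or more normalized counts and had an adjusted p in every comparison. They comprise 10 glycosylases of base excision repair, 10 genes of its later steps and of single-strand break repair, 13 genes of nucleotide excision repair, 6 of mismatch repair and 3 of direct reversal. The neurons were wild type (WT) C57BL/6, taken from E16.5 cortex of pooled male and female embryos and kept for 7 days in vitro. Every group, 0 h included, had been silenced overnight with 1 μM tetrodotoxin (TTX), a sodium channel blocker, and 100 μM DL-AP5, an NMDA receptor blocker. Depolarization was with 55 mM KCl, and each time point had 2 replicates. The 0 h group is therefore the silenced, unstimulated background for all other values. Poly(A)-selected RNA was sequenced, so the values describe mRNA and not repair activity.

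Base excision repair begins when a glycosylase cuts a damaged base from the sugar, after which an endonuclease, a polymerase and a ligase replace it. Nucleotide excision repair removes a stretch of DNA around a bulky lesion, which is found either by sensors that scan the whole genome or by an RNA polymerase that stalls on the lesion. Mismatch repair corrects errors of copying, and direct reversal removes a methyl or alkyl group without cutting the strand. Neurons that no longer divide rely on excision repair to keep their transcribed genes intact.

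The libraries held 25959298 to 28573067 expected counts. Nothing in the sources says that replicates came from separate cultures beyond their being called biological duplicates, so p-values measure the spread between these libraries. Fos and Npas4, early genes of neuronal activity, served as a check of the labels. Fos was at 38.2 and 34.6 (0 h), 6939 and 8222 (2 h), and 3915 and 3806 (6 h). Npas4 was at 47.0 and 37.9 (0 h), 7467 and 9480.2 (2 h), and 3899 and 3614 (6 h). Both were far above 0 h in every KCl library. The 9 neuronal marker genes summed to between 3243 and 4082 TPM and the 6 astrocyte markers to between 507 and 745 TPM, while 5 microglial markers summed to at most 4.34 TPM and 3 endothelial markers to at most 1.10 TPM. Transcripts of both neurons and astrocytes were thus present, and no marker was at 0 in all libraries. Exons of 15 of the 42 genes overlap those of another expressed gene. Non-whole counts, which arise when reads are divided between genes, were present in all 6 libraries for Mpg, Apex1, Lig3, Fen1 and Ddb2. The counts of these genes are uncertain. Apex2, Msh3 and Pms2 had non-whole counts in some libraries. For Ogg1, Lig1, Xpa, Ercc1, Ddb1, Msh6 and Alkbh2 the counts were whole in all 6 libraries, so no divided reads were seen there. The 2 h replicates stood apart from each other. For the 34 repair genes that averaged 50 or more normalized counts, log2 differences between replicates had an SD of 0.312 at 2 h, against 0.126 at 0 h and 0.191 at 6 h. At 2 h this difference followed GC content, with Spearman's rho of -0.67 across those 34 genes, which are not independent replicates.

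More of the 42 genes were lower than higher in every comparison. At 2 h, 12 of the 42 genes were lower than at 0 h and 2 were higher at a DESeq2 adjusted p of at most 0.05, while 14.2% of all genes tested were lower and 12.3% higher. At 6 h, 18 were lower and 6 higher compared with 0 h, against 21.7% lower and 23.7% higher among all genes. From 2 h to 6 h, 11 fell and 5 rose, against 21.2% and 24.1% of all genes. As shares, 28.6%, 42.9% and 26.2% of the repair genes were lower in the 3 comparisons, of which the last is near that of all genes. The count of 12 at 2 h was 6 without 0 h replicate 1 and 7 without 0 h replicate 2. The count of 18 at 6 h was 10 and 11 without these, and 11 without 6 h replicate 1. The median log2 fold change of the 42 genes was -0.18 at 2 h and -0.48 at 6 h compared with 0 h, and -0.17 between 2 h and 6 h, whereas the medians over all genes tested were 0.02, 0.00 and -0.01. The median at 2 h depended on 1 library: relative to all genes it was -0.05 without 2 h replicate 1 and -0.29 without 2 h replicate 2. In these bulk samples, fewer cells of a type and less RNA per cell cannot be told apart.

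A gene was called when it also changed more than 2-fold. At 2 h, 4 repair genes were called lower and 0 higher than at 0 h, where 5.94% and 3.62% of all genes were called. At 6 h, 10 were called lower and 0 higher than at 0 h, where 10.2% and 9.10% of all genes were called. The DESeq2 count of 0 higher was also 0 at an unadjusted p under 0.05 with the same fold, and 0 with edgeR, at both times. Between 2 h and 6 h, 8 were called lower and 2 higher, where 8.02% and 10.1% of all genes were called. Of the 18 genes that were lower at 6 h, 8 were already lower at 2 h and 10 were not.

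**Figure D1:**
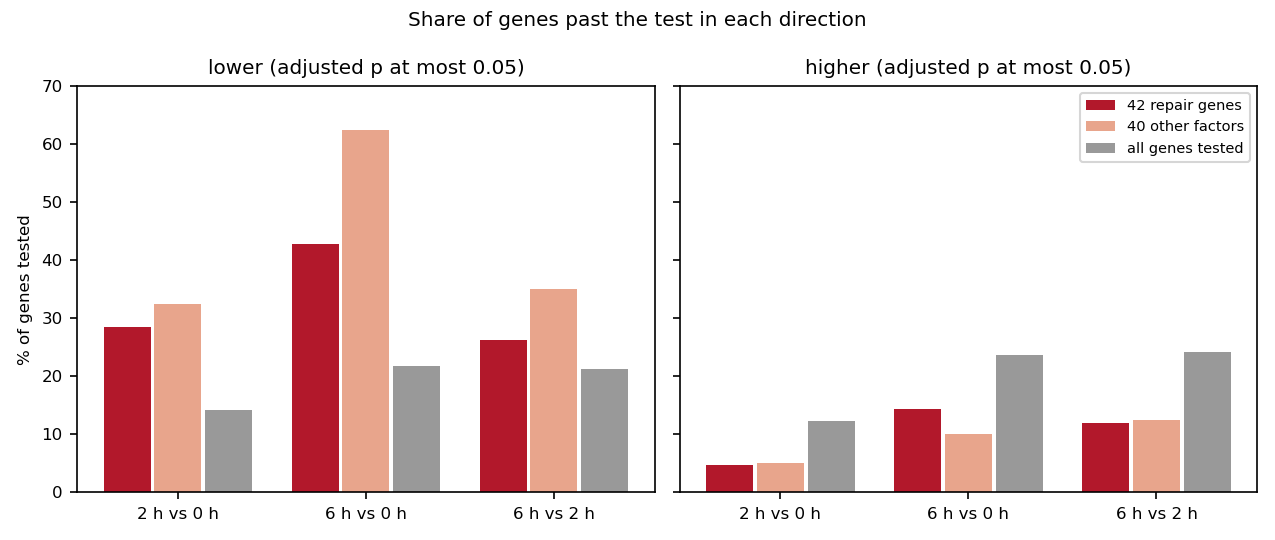
Share of genes in percent that were lower (left) or higher (right) at a DESeq2 adjusted p of at most 0.05 in each comparison, for the 42 repair genes, 40 other factors of the same pathways and all genes tested. At 6 h vs 0 h, 42.9% of the repair genes were lower and 14.3% higher, against 21.7% and 23.7% of all genes.

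Scaling by library totals instead of median-of-ratios shifted the median of all genes to -0.16 at 2 h and -0.25 at 6 h vs 0 h. Under it 17 repair genes were lower and 1 higher at 2 h, and 24 lower and 4 higher at 6 h. The distance between the median of the repair genes and that of all genes was -0.19 at 2 h and -0.48 at 6 h under both scalings, but -0.06 and -0.38 on log2 TPM with limma.

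**Figure D2:**
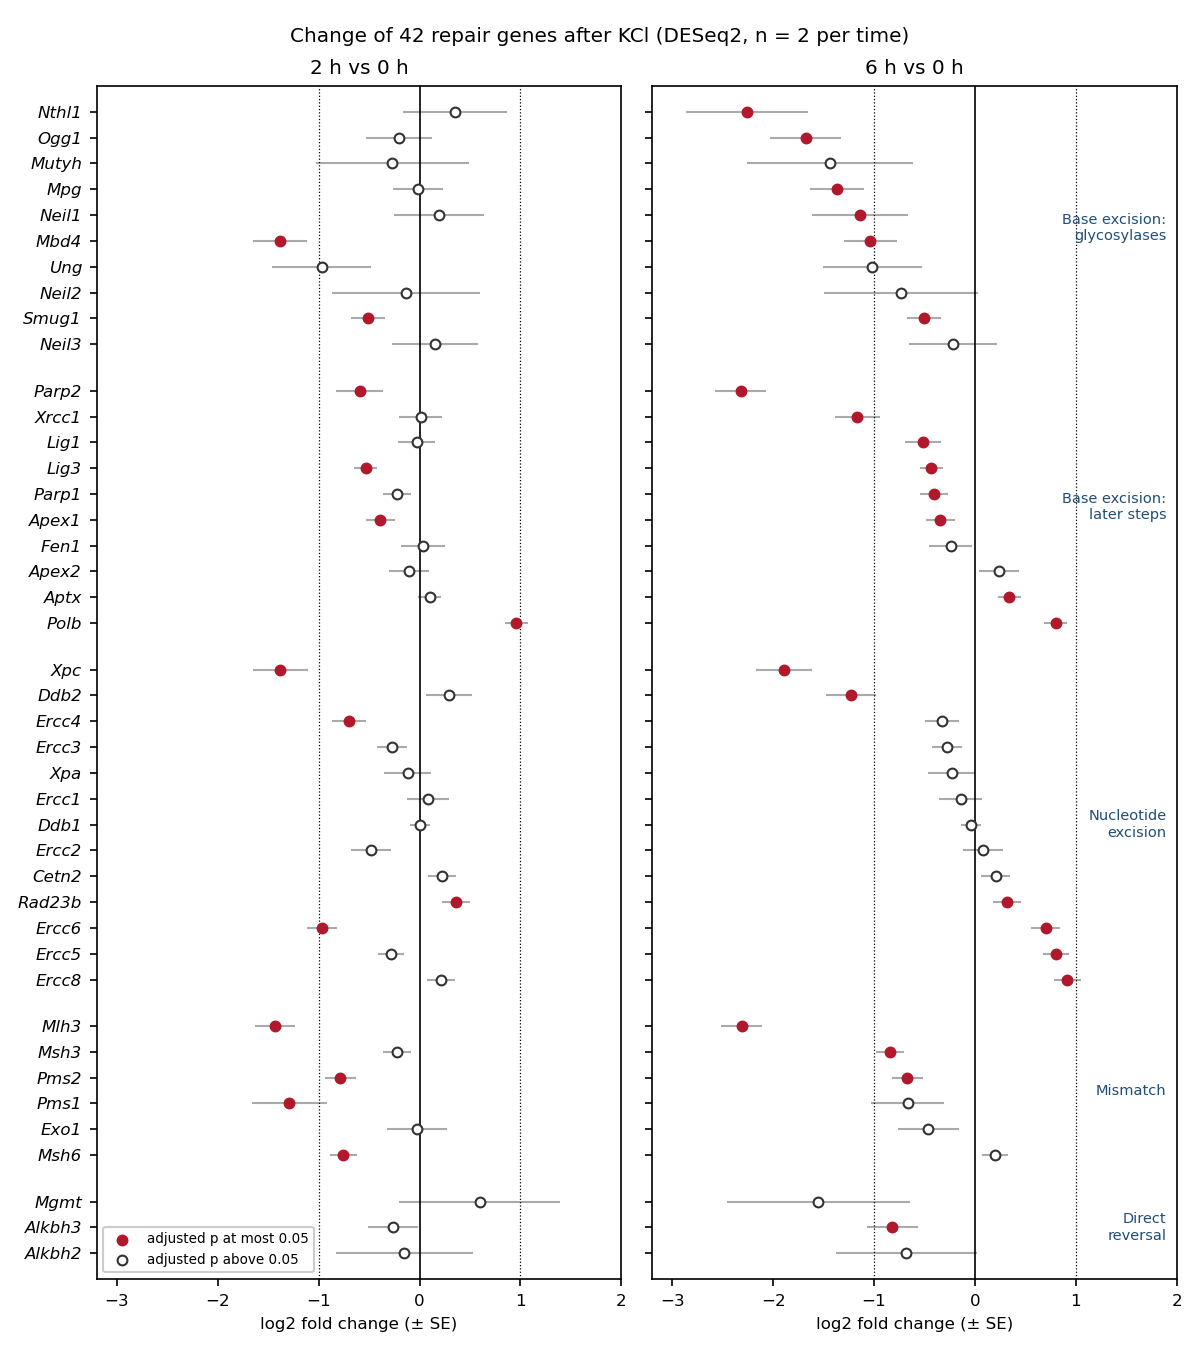
Log2 fold change with its standard error for each of the 42 genes at 2 h (left) and 6 h (right) compared with 0 h, grouped by pathway and sorted by the change at 6 h. Filled points had an adjusted p of at most 0.05, and dotted lines mark a 2-fold change. All 10 glycosylases lay below 0 at 6 h, and the 3 points farthest to the right at 6 h among nucleotide excision genes were Ercc6, Ercc5 and Ercc8.

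The regions just upstream of the start are printed for the 3 genes that fell most and the 3 nucleotide excision genes that rose most at 6 h vs 0 h among those with a promoter entry. They are the 120 bases before the RefSeq start on GRCm38.p6, written 5′ to 3′ on the strand of the gene. For Parp2 they lie at chr14:50807796-50807915 on the plus strand, for Mlh3 at chr12:85270600-85270719 on the minus strand (the first of its listed starts), and for Nthl1 at chr17:24632562-24632681 on the plus strand. For Ercc8 they lie at chr13:108158618-108158737 on the plus strand, for Ercc5 at chr1:44147624-44147743 on the plus strand, and for Ercc6 at chr14:32513401-32513520 on the plus strand. Capitals mark the motifs searched on both strands.
Parp2: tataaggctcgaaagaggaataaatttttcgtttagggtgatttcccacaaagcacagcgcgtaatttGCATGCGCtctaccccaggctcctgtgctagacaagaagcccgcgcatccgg
Mlh3: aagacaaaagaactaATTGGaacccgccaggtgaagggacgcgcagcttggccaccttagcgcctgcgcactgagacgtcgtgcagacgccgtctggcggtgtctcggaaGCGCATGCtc
Nthl1: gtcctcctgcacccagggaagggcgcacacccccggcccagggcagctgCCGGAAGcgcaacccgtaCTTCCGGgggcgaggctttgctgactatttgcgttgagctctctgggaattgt
Ercc8: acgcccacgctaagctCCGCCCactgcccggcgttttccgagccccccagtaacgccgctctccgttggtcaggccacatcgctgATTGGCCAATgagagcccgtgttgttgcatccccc
Ercc5: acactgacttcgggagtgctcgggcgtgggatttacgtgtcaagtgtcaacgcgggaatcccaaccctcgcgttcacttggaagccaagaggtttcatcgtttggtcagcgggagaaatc
Ercc6: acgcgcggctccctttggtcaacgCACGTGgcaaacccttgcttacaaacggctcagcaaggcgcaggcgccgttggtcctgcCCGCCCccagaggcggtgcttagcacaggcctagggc
The capitals are the NRF1 core GCATGCGC in Parp2 and, on the other strand, in Mlh3, the ETS motif CCGGAAG on either strand in Nthl1, the E-box CACGTG in Ercc6, the GC box GGGCGG (other strand) in Ercc6 and Ercc8, and CCAAT in Mlh3 and Ercc8. The Ercc5 stretch held none of them.

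Over the whole promoter windows of 300 bases (250 before and 50 after the start), which were listed for 35 of the 42 genes, the GC box was found in 27 genes (77.1%), against 38.2% of the 27025 genes with a window. CCAAT was found in 20 genes (57.1%, against 41.1%), and the E-box in 8 (22.9%, against 8.09%). The ETS motif was in 9 (25.7%, against 9.93%) and the NRF1 core in 5, namely Ercc6, Lig1, Mlh3, Parp2 and Xpa (14.3%, against 3.05%). The AP-1 motif TGANTCA was in 0 of the 35, against 8.97% of all genes. The cAMP response element TGACGTCA was in 1, Aptx (2.86%, against 2.03%), and its core TGACG, which the full element contains, in 15 (42.9%, against 23.0%). The motif E2F TTTNGCGC was in 4 (11.4%, against 1.57%) and the TATA box TATAAA in 2 (5.71%, against 15.7%). Genes on both sides of the response held the same letters, such as the NRF1 core in Parp2, which fell, and in Ercc6, which rose at 6 h. A match describes these letters and not a bound site, and nothing about a factor follows from its lack.

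Of the first step of base excision repair, the 10 glycosylases among the 42 genes were examined. At 6 h all 10 estimates were below 0 h, and 6 of the 10 passed the adjusted p, of which 5 were called lower, where 21.7% of all genes were lower and 10.2% called lower. Their median log2 fold change was -1.09. At 2 h only Mbd4 and Smug1 had passed. The summed level of the group was 48.7 and 53.9 TPM (0 h), 35.2 and 43.7 TPM (2 h), and 22.9 and 23.2 TPM (6 h), without overlap between the time points. Tdg, a glycosylase outside the 42 genes, was above these sums and rose, with 103 and 112 TPM (0 h) and 127 and 131 TPM (6 h). The sums therefore do not describe the whole first step.

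Ogg1 (ENSMUSG00000030271, chr6:113326972-113335068, plus strand, GRCm38) removes oxidized guanine. Its normalized counts, given throughout as replicate 1 and replicate 2, were 123 and 127 (0 h), 86.9 and 131 (2 h), and 35.3 and 43.0 (6 h). The 6 h libraries were below all others, and the 2 h libraries lay on both sides of 0 h. Ogg1 was at 31.2% of its 0 h level at 6 h, a log2 fold change, given throughout ± its standard error, of -1.68 ± 0.36 (adjusted p 1.24e-05) with DESeq2, and at 2 h the change was -0.20 ± 0.33 (adjusted p 0.743). Nthl1 (ENSMUSG00000041429, chr17:24632680-24638837, plus strand), which removes oxidized pyrimidines, was counted at 41.7 and 45.5 (0 h), 36.9 and 74.4 (2 h), and 9.63 and 8.60 (6 h). It had the lowest log2 fold change of the 10 at 6 h, -2.26 ± 0.61 (adjusted p 0.000735), on low counts, and its 2 h replicates spanned its 0 h values. Neil1 acts on oxidized pyrimidines as well and was at 43.5 and 58.1 (0 h), 46.9 and 69.3 (2 h), and 19.3 and 26.9 (6 h). Its change of -1.14 ± 0.48 (adjusted p 0.0389) at 6 h was near the threshold, and it lost its call without any single one of the 6 libraries and with the replicate block (adjusted p 0.0125 to 0.345 over the 16 alternatives run for single genes, as in every such range given here).

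Mpg, which removes alkylated purines, had 202 and 246 (0 h), 219 and 224 (2 h), and 101 and 73.1 (6 h). Only the 6 h libraries stood below, with a log2 fold change of -1.37 ± 0.26 (adjusted p 1.33e-06). Its counts are uncertain: they were non-whole in all 6 libraries, which means that reads were shared with another gene, and its exons overlap those of Nprl3 on the opposite strand, which had a log2 fold change of -1.92 at 6 h. Mbd4 (ENSMUSG00000030322, chr6:115840697-115853371, minus strand) removes thymine from mispairs with guanine at methylated CpG sites. It was at 212 and 186 (0 h), 68.9 and 83.7 (2 h), and 96.3 and 97.9 (6 h). The drop was present by 2 h, -1.38 ± 0.27 (adjusted p 2.7e-06), with no overlap with 0 h, and between 2 h and 6 h the change was 0.35 ± 0.28 (adjusted p 0.322). At 6 h vs 0 h it was -1.04 ± 0.26 (adjusted p 0.000297), and this call was lost without 0 h replicate 1 (adjusted p 1.09e-05 to 0.0791).

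Smug1, which removes uracil, was the most abundant of the 10 listed glycosylases at 0 h with 14.7 ± 0.948 TPM (SD). Its counts were 593 and 642 (0 h), 413 and 454 (2 h), and 400.2 and 470.0 (6 h). Both KCl groups were below 0 h and overlapped each other, with -0.51 ± 0.17 (adjusted p 0.0112) at 2 h and -0.51 ± 0.17 (adjusted p 0.0072) at 6 h. Both calls were lost without either 0 h library, among others (adjusted p 0.000964 to 0.336 and adjusted p 0.000112 to 0.226). The other uracil glycosylase, Ung, had log2 fold changes of -0.97 and -1.02 that did not pass (adjusted p 0.136 and 0.0779) but each passed in at least 1 alternative (adjusted p 0.0426 to 0.567 and adjusted p 0.0241 to 0.444). Mutyh, which removes adenine opposite oxidized guanine, and Neil2 were counted at under 18 in every library, and their changes at 6 h, -1.44 and -0.73, did not pass with DESeq2 at this depth, while that of Mutyh passed with edgeR (adjusted p 0.0344). Neil3 had -0.21 ± 0.44 (adjusted p 0.73).

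In the later steps of base excision repair, 6 of 10 genes were lower at 6 h compared with 0 h, 2 of them called, and 2 were higher. These are 60%, 20% and 20% of the group, where 21.7%, 10.2% and 23.7% of all genes were lower, called lower and higher, so the last share is near that of all genes. The summed level was 407 and 429 TPM (0 h), 361 and 405 TPM (2 h), and 358 and 363 TPM (6 h). The largest fall was in Parp2 (ENSMUSG00000036023, chr14:50807841-50821301, plus strand), 1 of a pair of enzymes that detect strand breaks and build chains of ADP-ribose on them. Parp2 was at 439 and 495 (0 h), 289 and 329.8 (2 h), and 113 and 73.1 (6 h). The 3 time points did not overlap, and each stood below the one before. At 6 h it was at 20% of the 0 h level, -2.32 ± 0.25 (adjusted p 8.87e-19). The step at 2 h, -0.59 ± 0.23 (adjusted p 0.0443), was lost with the replicate block and with GC correction among others (adjusted p 0.00679 to 0.468), while the step from 2 h to 6 h was -1.73 ± 0.26 (adjusted p 1.57e-10). Parp1, the more abundant of the pair at 65.6 ± 1.03 TPM (SD) against 22.3 ± 2.14 TPM (SD) at 0 h, changed by -0.41 ± 0.14 (adjusted p 0.00894) at 6 h.

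Xrcc1 (ENSMUSG00000051768, chr7:24546289-24573440, plus strand) is the scaffold that brings the ligase to a single-strand break. It was at 459.8 and 502 (0 h), 402 and 567 (2 h), and 205 and 224 (6 h). At 2 h its libraries lay on both sides of 0 h, and at 6 h both were below, with -1.16 ± 0.22 (adjusted p 1.17e-06) vs 0 h and -1.17 ± 0.22 (adjusted p 1.12e-06) vs 2 h. Lig3, the ligase that works with Xrcc1, changed by -0.53 ± 0.12 (adjusted p 4.7e-05) at 2 h, lost without either 0 h library (adjusted p 4.96e-07 to 0.0811), and -0.43 ± 0.12 (adjusted p 0.000752) at 6 h, and Lig1 by -0.51 ± 0.18 (adjusted p 0.0128) at 6 h. Lig3 counts were non-whole in all 6 libraries. Apex1, the endonuclease that cuts at the site left by a glycosylase, was the most abundant gene of the group at 0 h with 135 ± 1.62 TPM (SD). Its counts were 1712 and 1652 (0 h), 1165 and 1406 (2 h), and 1322 and 1335 (6 h). Both KCl groups were below 0 h, with -0.39 ± 0.14 (adjusted p 0.0239) at 2 h (adjusted p 7.41e-05 to 0.364 over all alternatives) and -0.34 ± 0.14 (adjusted p 0.0342) at 6 h. Apex1 also shared reads in all 6 libraries. The calls of Apex1, Lig1, Lig3 and Parp1 at 6 h were each lost without either 0 h library and without 6 h replicate 1, among others, with adjusted p up to 0.295, 0.21, 0.129 and 0.166.

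Polb (ENSMUSG00000031536, chr8:22628126-22653435, minus strand), the polymerase that fills the gap of a removed base, moved the other way. It was at 875 and 935 (0 h), 1798 and 1723 (2 h), and 1579 and 1578 (6 h). All 4 KCl libraries were above both 0 h libraries. At 2 h it was 1.95-fold higher, a log2 fold change of 0.96 ± 0.11 (adjusted p 2.68e-15), and at 6 h 1.74-fold higher, 0.80 ± 0.12 (adjusted p 3.49e-11). Both increases passed the adjusted p in all 16 alternatives (0.78 to 1.08 at 2 h and 0.56 to 0.85 at 6 h on the log2 scale), and with GC correction Polb passed the fold threshold at 2 h. Aptx, which clears failed ligations from a strand end, was at 1064 and 1104 (0 h), 1179 and 1142 (2 h), and 1392 and 1355 (6 h). It was higher at 6 h by 0.34 ± 0.11 (adjusted p 0.00782), without overlap, but by 0.09 when scaled by library totals (adjusted p 0.00212 to 0.565 over all alternatives, lost when any 1 of the 0 h or 6 h libraries was left out). Apex2 and Fen1, which trims flaps of displaced DNA, passed in no comparison, with 0.24 and -0.24 at 6 h.

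**Figure D3:**
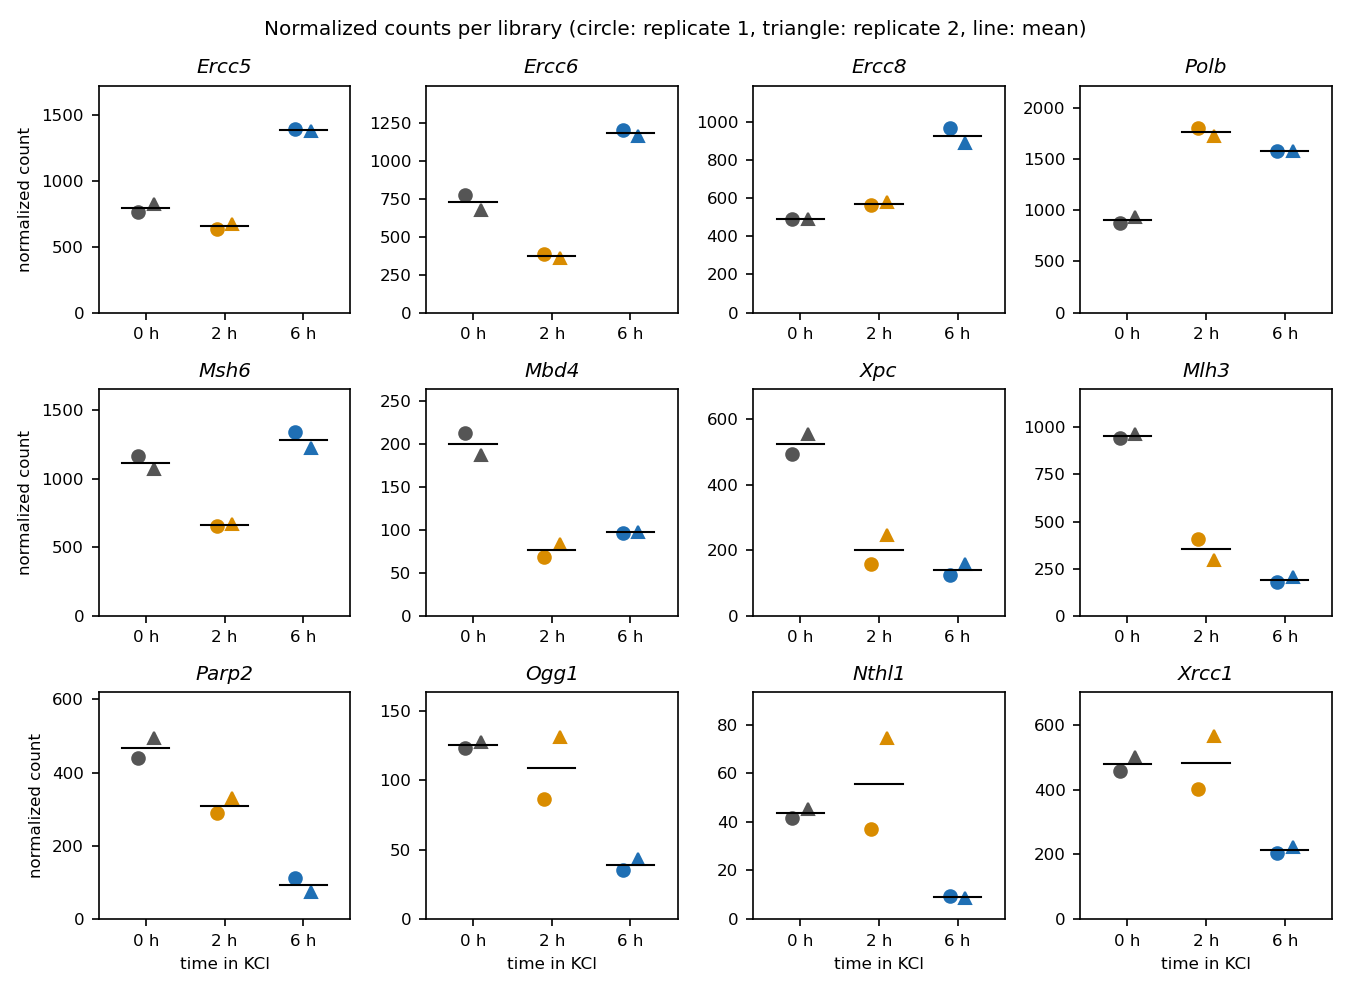
Normalized counts in each of the 6 libraries for 12 repair genes, by hours in KCl, with replicate 1 as circles, replicate 2 as triangles and the mean as a line (linear axes from 0). Ercc6 and Msh6 were lower at 2 h and back above the 2 h level at 6 h, Polb was higher from 2 h on, Mlh3 and Parp2 fell at both steps, and Ogg1, Nthl1 and Xrcc1 fell between 2 h and 6 h.

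Nucleotide excision repair genes moved in both directions. At 6 h vs 0 h, 4 of its 13 genes were higher, 2 were lower and 7 did not pass, shares of 30.8% and 15.4% that are near the 23.7% and 21.7% of all genes, with a median log2 fold change of -0.04. The 2 that fell, Xpc and Ddb2, encode sensors of damage across the whole genome. Of the 4 that rose, Ercc6 and Ercc8 act where RNA polymerase has stalled, Ercc5 cuts the damaged strand in both branches, and Rad23b is a partner of Xpc. Outside the 42 genes, Uvssa, also of the stalled polymerase branch, was lower at 6 h, -0.90 ± 0.26 (adjusted p 0.00157). Xab2, another factor of that branch, did not pass, with -0.06 ± 0.18 (adjusted p 0.817). The difference between the branches was not tested.

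Xpc (ENSMUSG00000030094, chr6:91489305-91515888, minus strand) was at 494 and 554 (0 h), 157 and 246 (2 h), and 123 and 159 (6 h). Both KCl groups were well below 0 h and overlapped each other. At 6 h Xpc was at 26.9% of the 0 h level, and the log2 fold changes were -1.38 ± 0.27 (adjusted p 4.02e-06) at 2 h and -1.89 ± 0.27 (adjusted p 5.7e-11) at 6 h. Both changes passed the adjusted p in all 16 alternatives, and in a test against a 2-fold change Xpc passed at 6 h (adjusted p 0.0245) but not at 2 h. Ddb2 (ENSMUSG00000002109, chr2:91211572-91236982, minus strand), which recognizes lesions made by ultraviolet light, was at 188 and 224 (0 h), 248 and 258 (2 h), and 79.2 and 96.8 (6 h). It was lower at 6 h, with -1.23 ± 0.25 (adjusted p 3.07e-06), and did not pass at 2 h, where both libraries were above 0 h. Ddb2 shared reads in all 6 libraries, and its exons overlap those of Acp2 on the opposite strand, which had a log2 fold change of -1.46 at 6 h, so its counts are uncertain. Ddb1, the partner of Ddb2 and a general adaptor of ubiquitin ligases, was the most abundant of the 42 genes at 0 h with 228 ± 3.34 TPM (SD). Its counts were 12323 and 12448 (0 h), 11869 and 13015 (2 h), and 12009 and 12049.5 (6 h). They spanned a narrow range, and the change was 0.01 ± 0.10 (adjusted p 0.977) at 2 h and -0.04 ± 0.10 (adjusted p 0.768) at 6 h.

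Neither of the partners of Xpc passed as lower. Rad23b was at 6671 and 5867 (0 h), 8785 and 7293 (2 h), and 7739 and 7890.3 (6 h), and all KCl libraries were above both 0 h libraries. The changes of 0.36 ± 0.14 (adjusted p 0.0397) and 0.32 ± 0.14 (adjusted p 0.0497) were small and at the edge of the threshold, and the 6 h value was 0.07 when scaled by library totals (adjusted p 1.01e-06 to 0.469 at 2 h and adjusted p 2.97e-05 to 0.677 at 6 h over all alternatives). Both were lost when any 1 of the 0 h or 6 h libraries was left out. Cetn2 changed by 0.22 ± 0.14 (adjusted p 0.277) at 2 h and 0.21 ± 0.14 (adjusted p 0.237) at 6 h, which did not pass, although the 2 h change did with GC correction (adjusted p 0.016).

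Ercc6 (ENSMUSG00000054051, chr14:32513521-32580990, plus strand), the ATPase that binds a stalled RNA polymerase, fell and then rose. It was at 776 and 675 (0 h), 385 and 357 (2 h), and 1199.5 and 1162 (6 h). The 2 h libraries were the lowest and the 6 h libraries the highest, with no overlap between any of the time points. It was at 51.2% of the 0 h level at 2 h and at 163% at 6 h. The log2 fold changes were -0.97 ± 0.15 (adjusted p 3.39e-09) at 2 h vs 0 h, 0.70 ± 0.14 (adjusted p 6.09e-06) at 6 h vs 0 h, and 1.67 ± 0.15 (adjusted p 7.08e-27) between 2 h and 6 h. All 3 kept their direction in the 16 alternatives. Ercc8 (ENSMUSG00000021694, chr13:108158731-108195364, plus strand), the ubiquitin ligase subunit of the same branch, was not lower at 2 h in either library. It was at 489 and 492 (0 h), 561 and 579 (2 h), and 965 and 888 (6 h). The time points did not overlap and each was above the one before, although the 2 h step, 0.22 ± 0.14 (adjusted p 0.278), did not pass. At 6 h Ercc8 was 1.89-fold higher than at 0 h, 0.92 ± 0.14 (adjusted p 1.98e-10).

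Ercc5 (ENSMUSG00000026048, chr1:44147744-44181260, plus strand) is the nuclease that makes 1 of the cuts around a lesion. It was at 763 and 828 (0 h), 636 and 674 (2 h), and 1397 and 1379 (6 h). At 2 h both libraries were below 0 h without passing the test, -0.28 ± 0.13 (adjusted p 0.0987), and at 6 h both were far above, 0.80 ± 0.13 (adjusted p 1.81e-09). From 2 h to 6 h it rose 2.12-fold, 1.08 ± 0.13 (adjusted p 7.18e-16), and this fell short of 2-fold with GC correction, where 1 member was called higher instead of 2. The nuclease of the other cut is made of Ercc1 and Ercc4, and neither passed as higher. Ercc4 was lower at 2 h, with -0.70 ± 0.17 (adjusted p 0.000313), a call lost without 0 h replicate 1 (adjusted p 1.42e-05 to 0.12), and changed by -0.32 ± 0.17 (adjusted p 0.105) at 6 h, and Ercc1 changed by 0.09 ± 0.21 (adjusted p 0.834) and -0.14 ± 0.21 (adjusted p 0.625). Among the helicases of TFIIH, the complex that opens DNA in repair and transcription, Ercc2 was at 644 and 656 (0 h), 388 and 543 (2 h), and 648 and 725 (6 h). Its 2 h libraries were the lowest and its 0 h and 6 h values overlapped. The change of Ercc2 at 2 h vs 0 h, -0.48 ± 0.20 (adjusted p 0.0587), did not pass. It passed as lower with the replicate block (adjusted p 0.036) and with GC correction (adjusted p 0.00181), among others. It rose between 2 h and 6 h by 0.56 ± 0.20 (adjusted p 0.0138), a call lost when any 1 of the 0 h or 6 h libraries or 2 h replicate 1 was left out (adjusted p 3.06e-06 to 0.211). Its change at 6 h vs 0 h was 0.08 ± 0.20 (adjusted p 0.785), and on log2 TPM with limma it was -0.31 and passed as lower (adjusted p 0.0473). Ercc3 and Xpa, which checks the lesion, changed by -0.28 and -0.23 at 6 h and did not pass, but each passed as lower in at least 1 alternative (adjusted p 0.00365 to 0.439 and adjusted p 0.0214 to 0.808).

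The summed level of mismatch repair was lower in all 4 KCl libraries than at 0 h. The summed level of the 6 genes was 75.0 and 72.2 TPM (0 h), 39.6 and 40.5 TPM (2 h), and 46.4 and 45.3 TPM (6 h). At 2 h, 4 of the 6 genes were lower than at 0 h and 0 higher (0 also at an unadjusted p under 0.05), where 14.2% of all genes were lower and 12.3% higher. All 6 estimates were below 0, with a median log2 fold change of -0.77. At 6 h, 3 of the 6 were lower, with a median of -0.67, where 21.7% of all genes were lower. The lower sum at 2 h than at 6 h rested on Msh6: the other 5 genes summed to 54.2 and 53.0 TPM (0 h), 29.3 and 29.8 TPM (2 h), and 25.4 and 25.7 TPM (6 h).

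Mlh3 (ENSMUSG00000021245, chr12:85234520-85270599, minus strand), a MutL homologue with roles in mismatch repair and in meiotic crossing over, was at 945 and 962 (0 h), 405 and 299 (2 h), and 179 and 205 (6 h). The time points did not overlap and each was below the one before. At 6 h Mlh3 was at 20.1% of its 0 h level. Its log2 fold changes were -1.44 ± 0.20 (adjusted p 1.37e-11) at 2 h, -2.31 ± 0.21 (adjusted p 1.06e-27) at 6 h and -0.88 ± 0.21 (adjusted p 0.000136) between them, and each of the 3 passed the adjusted p in all 16 alternatives. In a test against a 2-fold change only the 6 h vs 0 h difference of Mlh3 passed (adjusted p 1.43e-08). Pms1, another MutL homologue, was at 139 and 123 (0 h), 69.9 and 37.2 (2 h), and 79.2 and 86.0 (6 h). Both KCl groups were below 0 h, but the 2 h replicates differed more than those of any other of the 34 better covered genes, by 0.89 on the log2 scale. Its change was -1.29 ± 0.37 (adjusted p 0.00314) at 2 h, lost without either 0 h library or 2 h replicate 2 (adjusted p 0.000367 to 0.162), and -0.67 ± 0.36 (adjusted p 0.124) at 6 h. Pms2, the MutL subunit that nicks the strand, was lower at both times, with -0.78 ± 0.15 (adjusted p 3.47e-06) and -0.67 ± 0.15 (adjusted p 5.07e-05).

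Msh6 (ENSMUSG00000005370, chr17:87975062-87990892, plus strand), which recognizes single mispaired bases, was the most abundant gene of the group at 0 h with 20.1 ± 1.10 TPM (SD). It was at 1169 and 1070.3 (0 h), 657 and 669 (2 h), and 1345 and 1226 (6 h). The 2 h libraries were below all others, and the 6 h libraries were above both 0 h libraries. It changed by -0.76 ± 0.13 (adjusted p 2.33e-07) at 2 h and by 0.96 ± 0.13 (adjusted p 1.13e-11) from 2 h to 6 h, so that 6 h vs 0 h was 0.20 ± 0.13 (adjusted p 0.212). Msh3, which recognizes small loops, was lower at 6 h. It changed by -0.22 ± 0.14 (adjusted p 0.26) at 2 h and -0.84 ± 0.14 (adjusted p 2.36e-08) at 6 h. Exo1, the exonuclease that removes the faulty stretch, did not pass, with -0.46 at 6 h, except when scaled by library totals (adjusted p 0.0433).

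Of the 3 genes of direct reversal, Alkbh3, an enzyme that strips alkyl groups from DNA and RNA, was the most abundant with 19.3 ± 0.304 TPM (SD) at 0 h. It was at 162 and 145 (0 h), 129 and 126 (2 h), and 85.6 and 88.2 (6 h). Each time point was below the one before, without overlap, and the change at 6 h was -0.82 ± 0.26 (adjusted p 0.00413), lost when any 1 of the 0 h or 6 h libraries was left out (adjusted p 0.000222 to 0.165). Mgmt, which takes methyl groups off guanine, was at 7.99 and 20.2 (0 h), 18.0 and 24.8 (2 h), and 6.42 and 3.23 (6 h). Its 6 h libraries were below those of 2 h, with -2.15 ± 0.90 (adjusted p 0.0386), on counts so low that the call was lost without any single library (adjusted p 0.025 to 0.284 over all alternatives). Alkbh2 was counted at under 26 in every library, and no change was detectable at that depth.

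**Figure D4:**
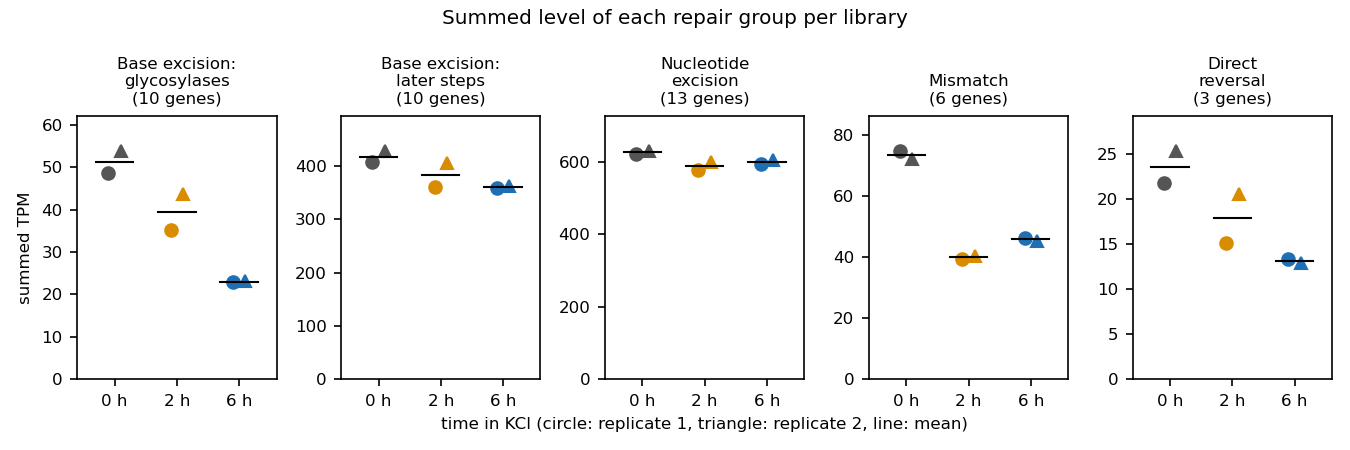
Summed TPM of each repair group in each library, by hours in KCl, with replicate 1 as circles, replicate 2 as triangles and the mean as a line (linear axes from 0). The 10 listed glycosylases went from 48.7 and 53.9 TPM at 0 h to 22.9 and 23.2 TPM at 6 h. Mismatch repair went from 75.0 and 72.2 TPM to 46.4 and 45.3 TPM, and nucleotide excision repair stayed between 578 and 632 TPM.

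Read over both steps, 9 genes passed only between 2 h and 6 h and fell (Ogg1, Mpg, Nthl1, Neil1, Xrcc1, Lig1, Ddb2, Msh3 and Mgmt), and 8 fell by 2 h and passed no further change (Smug1, Mbd4, Apex1, Lig3, Xpc, Ercc4, Pms1 and Pms2). Mlh3 and Parp2 fell at both steps. Ercc6 and Msh6 fell and then rose. Ercc2, Ercc5 and Ercc8 rose after 2 h, Polb and Rad23b rose by 2 h, and 16 genes passed at neither step. Of all genes tested, 14.2% were lower and 12.3% higher at 2 h, and 21.2% fell and 24.1% rose from 2 h to 6 h. The share of all genes with each course over both steps was not counted, so these counts only sort the repair genes. The changes of Neil1, Lig1, Mgmt, Smug1, Apex1, Lig3, Ercc4, Pms1, Ercc2 and Rad23b, and that of Parp2 at 2 h, were lost when some single library was left out. The sum over all 42 genes was 1194 ± 25.8 TPM at 0 h, 1070 ± 58.5 at 2 h and 1043 ± 9.63 at 6 h (SD, n = 2), while the median of all genes also shifted on the log2 TPM scale, by -0.15 at 2 h and -0.14 at 6 h. The summed TPM of 16 genes of dividing cells was 306 and 327 (0 h), 256 and 280 (2 h), and 225 and 211 (6 h). At 6 h vs 0 h, 7 of the 16 were lower (43.8%) and 0 higher, where 21.7% and 23.7% of all genes were. The 6 astrocyte markers went from 675 and 745 TPM at 0 h to 527 and 507 TPM at 6 h. The 5 progenitor markers did not move together: their sum went from 64.5 and 72.3 TPM to 97.3 and 95.8 TPM with Nes (30.9 and 37.0 TPM to 63.8 and 63.4 TPM), whereas Hes5 went from 7.99 and 6.37 TPM to 1.66 and 1.98 TPM. Of the 9 neuronal markers, 2 were lower (22.2%, near the 21.7% of all genes) and 4 higher (44.4%, against 23.7%) at 6 h vs 0 h. Tubb3 was called lower (1639 and 1679 TPM to 666 and 794 TPM). Gad1 (159 and 156 TPM to 386 and 355 TPM) and Gad2 (37.4 and 32.7 TPM to 80.3 and 77.5 TPM) were called higher. The markers of the oligodendrocyte lineage (6 genes) lay between 95.4 and 141 TPM in all libraries. The part of these cells in the changes of the repair genes was not tested.

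The transcript mix was examined through the effective length that RSEM gives each gene, which moves when longer or shorter transcripts of the gene gain. Of the 42 genes, 32 had enough counts to test, and 0 were called in any comparison with limma, where 0.0356%, 0.525% and 0.116% of all genes were called at 2 h and at 6 h against 0 h and at 6 h against 2 h, respectively. At an unadjusted limma p under 0.05, without the cutoff on the ratio, there were 4, 5 and 6 of the 32. They include small shifts, such as Parp1 with a log2 ratio of -0.03 at 6 h vs 2 h. The share of all genes at that threshold was not counted, so no excess is read from these counts. Ercc4 had the lowest adjusted p at 6 h, with effective lengths of 3447 and 3282 bases (0 h), 3397 and 3574 bases (2 h), and 2563 and 2599.9 bases (6 h). Its 6 h libraries were below all others, with a log2 ratio of -0.38 ± 0.04 (limma adjusted p 0.0635) vs 0 h and -0.43 ± 0.04 (adjusted p 0.0764) vs 2 h. Aptx had the next lowest adjusted p at 6 h vs 0 h, -0.29 ± 0.04 (adjusted p 0.095), and was called without 2 h replicate 1 or 2 h replicate 2, with adjusted p at 0.05. Exo1 had a log2 ratio of larger size, -0.55 ± 0.42, that did not pass (adjusted p 0.464), with 3476 and 1685 bases in the 6 h libraries.

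Polymerases, clamp loaders, TFIIH subunits and accessory factors of the same pathways that are not among the 42 genes were also more often lower than higher. Of 40 such genes, 13 were lower and 2 higher at 2 h, and 25 lower and 4 higher at 6 h compared with 0 h, with medians of -0.26 and -0.64. As shares, 32.5% and 62.5% were lower, against 14.2% and 21.7% of all genes, and 5% and 10% were higher, against 12.3% and 23.7%. Without either 0 h library, 1 or 2 were lower at 2 h and 14 at 6 h. Among subunits of TFIIH, Gtf2h3 changed by -2.05, Gtf2h4 by -1.83 and Cdk7 by -0.86 at 6 h, while Gtf2h1 rose by 0.78 (adjusted p 2.64e-24, 9.97e-14, 1.36e-10 and 1.2e-08). Poll, a polymerase of the same family as Polb, changed by -2.05 ± 0.29 (adjusted p 1.24e-11), whereas Polb rose. Tdg, the thymine glycosylase that excises oxidized forms of methylated cytosine, rose by 0.51 ± 0.10 (adjusted p 5.09e-07).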

How the data were processed

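Poly(A) RNA of 6 libraries, with 2 replicates at each of 0 h, 2 h and 6 h of KCl, was analysed from gene tables, and the bisulfite data were not used here. Reads had been trimmed with Trim Galore, mapped to mm10 and quantified with RSEM. The submitters' processing notes name RSEM 1.3.0 and Bowtie2 2.2.9. The paper describes the libraries as stranded, but the annotation release and the strand setting of RSEM are not given in the sources used here. Genes that overlap on opposite strands may therefore share reads, which RSEM would divide into non-whole counts. The expected counts deposited by the authors are not normalized and need not be whole, because RSEM divides ambiguous reads. The TPM values deposited by the authors are corrected for length and scaled to 1 total per library, so they were used to compare levels between genes. The effective length in bases, also deposited, has its own scale and is unnormalized (other unit). The deposited FPKM column was not used.

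Identifiers were matched to symbols and positions with GENCODE M21 (GRCm38), which named 42462 of 43432 genes. Promoter sequences are those of RefSeq on GRCm38.p6, listed for 35 of the 42 genes. Expected counts were rounded and fitted for all genes and all 6 libraries with DESeq2 1.42.0 (R 4.3.3), with time as the only term, median-of-ratios factors, unshrunken fold changes, the two-sided Wald test and p-values adjusted by Benjamini and Hochberg's method across all genes that independent filtering kept. A change passed when its adjusted p was 0.05 or less and was called when the absolute log2 fold change was also above 1, the thresholds of the study's methods. Log2 effective length was tested with limma 3.58.1 over genes averaging 100 or more counts and called at an absolute log2 ratio of at least 0.2. Alternatives were TMM factors, library totals, edgeR 4.0.16, a mean count filter of 10, no independent filtering, a test against 2-fold (for counts of called genes), 4 libraries only, GC correction, a replicate block, both together, log2(TPM + 1) with limma, and leaving out each library. The count test was also run on simulated counts, as a check of the code and not of these results. Full values are given for genes called in a comparison, genes that rose, and the most abundant gene of each group, and the rest are summarised. The members, lists and tests were chosen with earlier results of these data known. Intervals from counts would cover counting error only, since reads carry no molecular identifiers.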

Additional observations from a re-analysis of the deposited data

How the results depend on the processing

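Of 54 changes of repair genes past the adjusted p, 33 kept their direction and their side of the threshold in the 16 alternatives run for single genes, which do not include the test against 2-fold, and 21 lost the call in at least 1 while keeping direction. Most losses came from leaving out a library: 20 and 19 without 0 h replicates 1 and 2, 17 and 15 without 6 h replicates 1 and 2, and 6 and 5 without 2 h replicates 1 and 2, where the lone sample of a group is assumed to vary like the others. Of the 72 changes that did not pass, 23 passed in the same direction in at least 1 alternative, most often with library totals (12) and log2 TPM (10). Ercc2 at 6 h vs 0 h, which did not pass, reversed from 0.08 to -0.31 on log2 TPM with limma and passed there as lower (adjusted p 0.0473). Low depth limits Mutyh, Neil2, Mgmt and Alkbh2. The cause of these shifts was not tested.

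Deviations of same-numbered libraries correlated at 0.28, -0.00 and 0.15, and at 0.12, -0.06 and 0.04 after GC correction. With 2 libraries per time, these values cannot settle whether the replicate numbers pair the samples. In the fit that takes the replicate number as a block, 12 repair genes were lower and 2 higher at 2 h, 17 and 6 at 6 h vs 0 h, and 10 and 5 at 6 h vs 2 h. Among the 12, Ercc2 came in and Parp2 dropped out.

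At 2 h vs 0 h, the count of repair genes higher was 1 with TMM factors, library totals, no independent filtering and 4 libraries only. The test against 2-fold called 0 lower at 2 h vs 0 h, 3 lower at 6 h vs 0 h, and 0 lower and 1 higher at 6 h vs 2 h. GC correction, with or without the block, called 1 higher at 2 h vs 0 h and 1 at 6 h vs 2 h, and log2 TPM also called 1 there. Leaving out 1 library gave 6 to 14 lower and 1 to 2 higher at 2 h vs 0 h, 10 to 18 lower and 4 to 6 higher at 6 h vs 0 h, and 8 to 12 lower and 4 to 6 higher at 6 h vs 2 h. With the fold threshold it gave 3 to 5 lower and 0 to 1 higher, 8 to 9 lower and 0 higher, and 6 to 7 lower and 2 to 3 higher. Calls of effective length ranged from 0 to 1 at 6 h vs 0 h.

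For the 40 other factors at 2 h vs 0 h, 8 were lower with 4 libraries only and with the block and GC correction. Higher were 1 with library totals, 4 libraries only, the block and log2 TPM, and 6 with GC correction, alone or with the block. At 6 h vs 2 h, 22 were lower with GC correction. Leaving out 1 library gave 1 to 11 lower and 0 to 5 higher, 14 to 24 lower and 3 to 5 higher, and 8 to 15 lower and 3 to 7 higher in the 3 comparisons.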

Other observations

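Several repair genes lie head to head with a gene on the opposite strand, transcribed away from each other with starts at most 164 bases apart, which gives 10 pairs. Fen1 and Tmem258, with starts 155 bases apart, are not among them because their exons overlap. In several of the 10 pairs the neighbour did not share the change at 6 h vs 0 h. Xpc starts 40 bases from Lsm3, and its log2 fold change was -1.89, against -0.11 for Lsm3 (DESeq2 adjusted p 0.695). Nthl1 starts 50 bases from Tsc2 and changed by -2.26, against -0.01 for Tsc2 (adjusted p 0.947). Pms2 starts 117 bases from Aimp2 and changed by -0.67, against -0.03 for Aimp2 (adjusted p 0.879). Cetn2 changed by 0.21 and did not pass, while its neighbour Nsdhl, a gene of cholesterol synthesis, was at -1.04 (adjusted p 1.21e-17).

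Other pairs moved the same way. Ercc8 and Ndufaf2, 108 bases apart, had 0.92 and 0.62 (adjusted p 0.00162), and Mbd4 and Ift122, 99 bases apart, had -1.04 and -2.03 (adjusted p 3.57e-35). At 2 h Mbd4 was at -1.38 and Ift122 at -0.15 (adjusted p 0.552). The remaining 4 pairs had both estimates below 0. These were -1.44 for Mutyh and -0.87 for Toe1, and -0.34 for Apex1 and -0.56 for Osgep. The last pairs had -0.67 for Pms1 and -0.44 for Ormdl1, and -1.23 for Ddb2 and -0.53 for A330069E16Rik. Of these genes, Mutyh, Pms1 and A330069E16Rik did not pass with DESeq2 (adjusted p 0.149, 0.124 and 0.619). The difference between the genes of a pair was not tested, and this comparison was added after the data were seen.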
